A study of Homo sapiens with 14 samples.

Results

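Digoxin, a cardiac glycoside that binds and blocks the sodium and potassium pump of the plasma membrane, was given at 100 nM to C4-2B cells, a prostate cancer line derived from LNCaP cells. The 8 genes described here are SPARC, IL32, FAXDC2, NPPC, TAX1BP3, CIP2A, MAP2K6 and FBXO4, out of 35194 gene IDs in the deposited tables. They were selected on their FPKM with digoxin over the vehicle of the same series, which differed by at least 2-fold, and in 1 direction, after 24 h and again after 48 h. Of the 8 genes 5 were higher and 3 lower. The choice therefore used the digoxin and vehicle values themselves, and those values are a description. The ratios of UA over its own vehicle, in C4-2B and in HCC70 cells, use none of the libraries behind the choice. The limma fit of the closing section takes its variance from all 14 libraries, so it includes those libraries. The comparisons between vehicles, the partner lists, the adjacent genes and the correlations all include some of those libraries and are descriptions too.

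RNA-seq of 14 libraries was examined, all from unmodified cells grown in the same medium. There were 8 libraries of C4-2B cells, in 2 series: vehicle and 10 µM ursolic acid (UA), and vehicle and 100 nM digoxin, each at 24 and 48 h. The other 6 libraries came from HCC70, a breast cancer line, with vehicle, 5 µM UA or 10 µM UA at 24 and 48 h. Each condition had 1 library, so values carry no replicate error and no comparison between conditions has a replicate check. "Higher" and "lower" name the order of these libraries only.

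Levels are FPKM, fragments scaled by transcript length and by the number of mapped fragments. The digoxin-series tables do not state their unit, and FPKM was assumed for them from the study's methods and from how large the values are. Ratios are log2((FPKM + 0.1)/(FPKM + 0.1)), which understates the change of low genes, and a gene was compared where it was above 1 FPKM in either library. A library held 11225 to 12183 genes above 1 FPKM. The mitochondrial genes held 37.3 to 41.96% of the summed FPKM in the UA series of C4-2B cells and 24.6 to 33.1% in the digoxin series. The series therefore differed in make-up as well as in treatment. Within the digoxin series the share was 33.1% with vehicle and 25.9% with digoxin at 24 h, and 25.9% and 24.6% at 48 h. The 24 h pair that helped choose the genes thus differed in make-up too. Checked against markers of each cell type, 11 of 11 prostate luminal genes, KLK3 among them, were above 1 FPKM in every C4-2B library, and 10 of 10 basal breast genes were in every HCC70 library. HCC70 libraries also had 5 of 11 prostate luminal genes above 1 FPKM. C4-2B libraries had 3 to 8 of 10 basal breast genes, with 8 in the 48 h UA library. The basal genes summed to 40.66 to 61.69 FPKM in C4-2B and to 2255.35 to 7808.29 FPKM in HCC70 libraries.

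The 8 genes belong to no single pathway. Those higher with digoxin encode SPARC (osteonectin), a secreted protein that binds collagen and calcium and shapes how cells attach to matrix, IL-32, a cytokine made by lymphoid and epithelial cells that can induce other inflammatory cytokines, and C-type natriuretic peptide (NPPC), a secreted hormone whose receptor NPR2 makes cyclic GMP. FAXDC2 is a membrane protein of the fatty acid hydroxylase superfamily, and TAX1BP3 (TIP-1) is a small protein that consists almost wholly of a PDZ domain and binds the tails of partners such as beta-catenin and rhotekin. Those lower with digoxin encode CIP2A, an inhibitor of the phosphatase PP2A that keeps the MYC protein stable, MAP2K6 (MKK6), a kinase that phosphorylates and activates p38 MAP kinases, and FBXO4, the F-box subunit of an SCF ubiquitin ligase whose described substrates include cyclin D1 and the telomere protein TERF1.

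The promoter sequences of 4 of these genes are shown, since the levels of the genes below can then be read beside the DNA at their start sites: IL32 and NPPC, the genes whose level differed most between the vehicles of the 2 series, TAX1BP3, the most abundant of the 8, and FBXO4, the gene furthest below its vehicle. Each runs 5′ to 3′ on the gene's strand from 250 bases before to 50 bases after the start, from RefSeq on GRCh38.p14. Capitals mark every match to a motif that was searched.
IL32: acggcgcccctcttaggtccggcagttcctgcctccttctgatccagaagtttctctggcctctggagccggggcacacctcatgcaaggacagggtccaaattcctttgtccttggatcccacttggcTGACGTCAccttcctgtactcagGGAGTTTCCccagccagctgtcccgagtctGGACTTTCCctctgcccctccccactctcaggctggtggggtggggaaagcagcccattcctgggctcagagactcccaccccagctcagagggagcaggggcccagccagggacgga
NPPC: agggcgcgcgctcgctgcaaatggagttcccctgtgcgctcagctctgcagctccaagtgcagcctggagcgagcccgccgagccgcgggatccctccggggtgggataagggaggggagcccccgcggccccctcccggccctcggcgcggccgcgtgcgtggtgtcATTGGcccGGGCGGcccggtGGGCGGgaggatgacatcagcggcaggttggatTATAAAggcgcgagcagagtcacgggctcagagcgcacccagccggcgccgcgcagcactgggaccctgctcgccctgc
TAX1BP3: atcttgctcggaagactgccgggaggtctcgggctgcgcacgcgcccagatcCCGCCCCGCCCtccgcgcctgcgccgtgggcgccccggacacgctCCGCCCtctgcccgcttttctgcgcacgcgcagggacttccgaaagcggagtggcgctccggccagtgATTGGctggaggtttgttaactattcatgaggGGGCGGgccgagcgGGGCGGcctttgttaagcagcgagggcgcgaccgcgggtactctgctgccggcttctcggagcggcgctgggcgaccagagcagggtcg
FBXO4: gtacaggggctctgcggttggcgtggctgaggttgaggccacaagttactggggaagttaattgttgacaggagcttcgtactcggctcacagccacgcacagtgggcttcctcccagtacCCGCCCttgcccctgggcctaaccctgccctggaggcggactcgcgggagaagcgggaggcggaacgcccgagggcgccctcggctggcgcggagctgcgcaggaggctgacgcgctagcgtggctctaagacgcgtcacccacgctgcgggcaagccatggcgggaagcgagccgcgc

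These windows are chr16:3065153-3065452 (plus strand) for IL32, chr2:231926347-231926646 (minus strand) for NPPC, chr17:3668529-3668828 (minus strand) for TAX1BP3 and chr5:41925031-41925330 (plus strand) for FBXO4. All 8 genes were matched to the RefSeq promoter table, with 10 windows in all because IL32 and MAP2K6 have 2 starts each, and both strands were searched. The IL32 window holds the cyclic AMP response element TGACGTCA, 121 bases before the start, and 2 matches to the NF-kB motif GGANTTTCC. Of 35116 promoter windows in the table, 1.85% hold the first motif and 1.64% the second. NPPC has TATAAA 29 bases before its start, which 11.5% of all windows hold, and a GC content of 73.0% against a median of 58.7% over all windows. The GC box GGGCGG was found in 6 of the 10 windows and in 45.0% of all windows. These 6 belong to 6 of the 8 genes (IL32 in its second window, MAP2K6 in its first, NPPC, TAX1BP3, CIP2A and FBXO4). TAX1BP3 holds 5 matches, of which 2 share a base. CCAAT was found in NPPC and TAX1BP3 (34.6% of windows), TATAAA also in the second window of MAP2K6, and GGAAAA, bound by NFAT, only in the second window of IL32 (24.0%). No window of the 8 genes held TGANTCA (AP-1, 7.71% of windows), TTTCCCGC or TTTGGCGC (E2F, 2.27%), AGGTCA (a part of longer nuclear receptor elements, 13.8%) or a CArG box (1.29%). A match is a description of letters and not of a bound site.

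SPARC lies on hg38 at chr5:151661096-151686975, on the minus strand. Its level was 1.91 FPKM in the digoxin-series vehicle and 4.59 FPKM with digoxin at 24 h, and 1.31 and 8.24 FPKM at 48 h. These are ratios of 1.22 and 2.56 on the log2 scale, or 2.33-fold and 5.91-fold. With a pseudocount of 1 FPKM in place of 0.1 the 24 h ratio was 0.94, under 2-fold. In the UA series SPARC was at 0.73 and 0.84 FPKM in the vehicles and at 0.49 and 0.12 FPKM with UA. Both digoxin libraries therefore lay above the 6 other C4-2B libraries, which reached 1.91 FPKM at most. SPARC was listed at 0 in all 6 HCC70 libraries.

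Fibroblasts are a rich source of SPARC, and their markers were checked beside it. Between 1 and 2 of 8 fibroblast markers were above 1 FPKM in a C4-2B library, with COL1A2 listed at 0 in each of the 8. The markers summed to 4.03 to 5.14 FPKM with digoxin and to 4.09 to 5.11 FPKM in its vehicle, most of it COL1A1.

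IL32 lies at chr16:3065297-3082192 on the plus strand. In the digoxin series it was at 3.01 FPKM with vehicle and 8.10 FPKM with digoxin at 24 h, and at 1.76 and 10.55 FPKM at 48 h, ratios of 1.40 and 2.52 on the log2 scale. The UA-series vehicles, however, were at 9.54 and 11.56 FPKM, and the UA libraries at 14.19 and 18.90 FPKM. The digoxin libraries thus lay among the other C4-2B libraries, and the vehicles of the digoxin series were the lowest of the 8. HCC70 cells held 2.44 to 9.64 FPKM. Lymphocyte markers were at or near 0 in C4-2B cells: 0 of 8 were above 1 FPKM, PTPRC was listed at 0 throughout, and the sum was 0.52 FPKM at most.

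Macrophage markers, also checked because macrophages can make IL-32, were higher with digoxin than in the vehicle of the same series. They summed to 8.64 to 8.94 FPKM in the vehicle and to 11.95 to 28.99 FPKM with digoxin. CD68, a lysosomal membrane protein that other cells make too, accounted for most of this, with 8.0 and 8.20 FPKM in the vehicles and 10.96 and 26.90 FPKM with digoxin, and LYZ reached 1.83 FPKM at 48 h. In the UA series, however, the 6 markers summed to 20.18 to 20.47 FPKM with vehicle and to 21.94 to 27.09 FPKM with UA. The 24 h digoxin library lay below all of these, and the digoxin-series vehicles were the lowest of the C4-2B libraries, as for IL32. Of the 6 markers 1 to 2 were above 1 FPKM with digoxin, AIF1 was listed at 0 in every C4-2B library, and the part of these markers in the IL32 result was not tested.

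NPPC lies at chr2:231921809-231926396 on the minus strand, with no other annotated gene overlapping it. It was at 3.05 FPKM with vehicle and 10.32 FPKM with digoxin at 24 h, and at 4.02 and 17.94 FPKM at 48 h, ratios of 1.73 and 2.13. The vehicles of the UA series held 18.12 and 15.95 FPKM and the UA libraries 11.14 and 8.08 FPKM. As for IL32, the digoxin-series vehicles were the lowest of the 8 C4-2B libraries and the digoxin libraries lay among the rest. NPPC was listed at 0 in all 6 HCC70 libraries.

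FAXDC2 lies at chr5:154818492-154859252 on the minus strand. It was at 1.41 FPKM with vehicle and 4.38 FPKM with digoxin at 24 h, and at 0.84 and 5.43 FPKM at 48 h, ratios of 1.57 and 2.56. In the UA series it was at 3.19 and 1.40 FPKM with vehicle and 3.15 and 0.81 FPKM with UA, so both digoxin libraries lay above the other 6. HCC70 cells held more, 8.64 to 15.76 FPKM. FAXDC2 overlaps CNOT8, a subunit of the CCR4-NOT deadenylase complex, on the opposite strand, and the sources used here do not state counting by strand, so reads from shared sequence cannot be assigned to either gene. CNOT8 had digoxin ratios of 1.07 at 24 h and 0.07 at 48 h.

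TAX1BP3, at chr17:3662895-3668679 on the minus strand, was the most abundant of the 8. Its level was 39.60 FPKM with vehicle and 95.43 FPKM with digoxin at 24 h, and 25.67 and 102.36 FPKM at 48 h, ratios of 1.27 and 1.99. The UA-series vehicles held 59.50 and 44.92 FPKM and the UA libraries 46.01 and 40.36 FPKM, all below both digoxin libraries. The 2 vehicles of the digoxin series were the lowest of the 8 C4-2B libraries. In HCC70 cells it ranged from 77.09 to 128.33 FPKM. The readthrough transcript P2RX5-TAX1BP3, which shares exons with it, was listed at 0.49 FPKM in each digoxin library, and CTNS, which overlaps on the opposite strand, had ratios of 0.14 and 0.11.

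CIP2A, at chr3:108549864-108589644 on the minus strand, was at 14.55 FPKM with vehicle and 6.76 FPKM with digoxin at 24 h, and at 11.62 and 5.2 FPKM at 48 h, ratios of −1.09 and −1.14. The UA-series vehicles held 8.84 and 8.89 FPKM and the UA libraries 7.49 and 6.90 FPKM. The digoxin libraries were the lowest of the 8, although the 24 h one lay close to the lowest UA library, and the 2 vehicles of the same series were the highest.

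MAP2K6, at chr17:69414697-69553865 on the plus strand, was at 12.36 FPKM with vehicle and 5.03 FPKM with digoxin at 24 h, and at 14.45 and 5.44 FPKM at 48 h, ratios of −1.28 and −1.39. The UA-series vehicles held 8.39 and 8.34 FPKM and the UA libraries 6.53 and 7.67 FPKM, so both digoxin libraries were again the lowest of the 8 and their vehicles the highest. HCC70 cells had little of it, 0.04 to 2.05 FPKM.

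FBXO4, at chr5:41925254-41941743 on the plus strand, was at 4.98 FPKM with vehicle and 1.67 FPKM with digoxin at 24 h, and at 5.94 and 2.10 FPKM at 48 h, ratios of −1.52 and −1.46. The UA-series vehicles held 1.98 and 2.47 FPKM and the UA libraries 2.52 and 2.08 FPKM. As for CIP2A and MAP2K6, the 2 vehicles of the digoxin series were the highest of the 8 C4-2B libraries, and the 48 h digoxin library lay inside the range of the UA series.

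**Figure D1:**
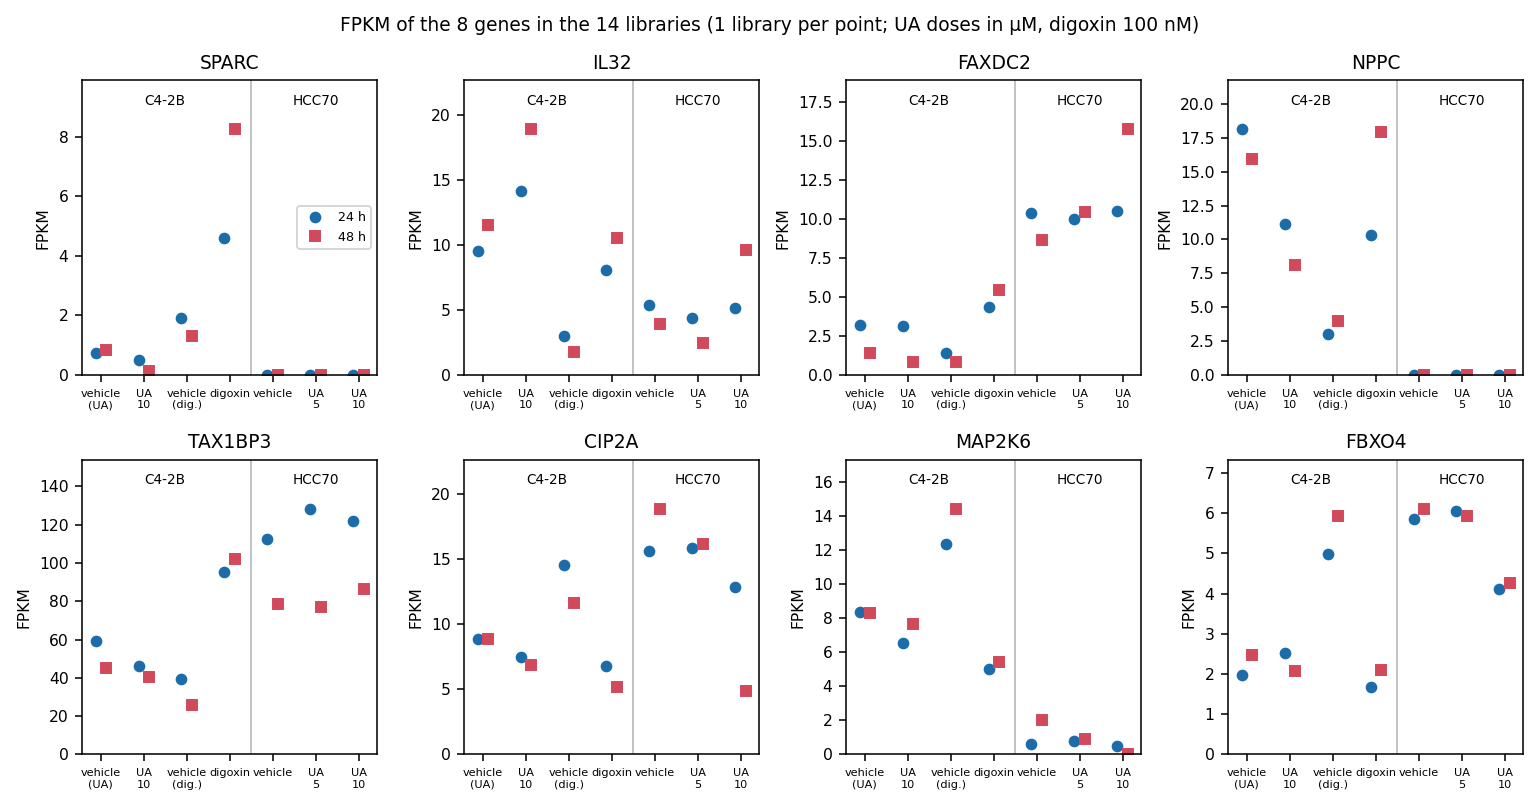
FPKM of each of the 8 genes (y axis, linear from 0) in the 14 libraries (x axis, by group, UA doses in µM), with circles for 24 h and squares for 48 h and 1 library per point. Both digoxin libraries lie outside the 6 other C4-2B libraries for SPARC, FAXDC2, TAX1BP3, CIP2A and MAP2K6, and both digoxin-series vehicles lie outside the 6 others for IL32, NPPC, TAX1BP3, CIP2A, MAP2K6 and FBXO4.

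Over the 8 C4-2B libraries both digoxin libraries lay outside the 6 others for 5 of the 8 genes (23.6% of 12817 genes), and both digoxin-series vehicles for 6 of the 8 (21% of genes). The choice used these libraries, so the counts are a description.

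The 8 genes were placed among all genes that meet the same condition. Of 11749 genes compared at both times, 123 (1.05%) were past 2-fold in 1 direction with digoxin, 71 higher and 52 lower. The share of genes past 2-fold in either direction was 4.39% at 24 h and 6.10% at 48 h, and all 8 genes are past it because they were chosen so. At 48 h SPARC, FAXDC2, IL32, NPPC and TAX1BP3 ranked 27, 28, 29, 42 and 52 from the top of 12236 genes, while FBXO4, MAP2K6 and CIP2A ranked 150, 173 and 294 from the bottom. Ordered by the smaller of their ratios at both times, they stood in the middle of these genes rather than at their head: NPPC was number 14 of 71, FAXDC2 19, IL32 28, TAX1BP3 37 and SPARC 38, and FBXO4 was number 14 of 52, MAP2K6 20 and CIP2A 41. Just inside the threshold were RHBDF1 (1.00 and 1.29) and FAXC (−1.0 and −1.42), and just outside it AURKA (1.17 and 0.999) and CFAP298-TCP10L (−1.01 and −0.985).

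**Figure D2:**
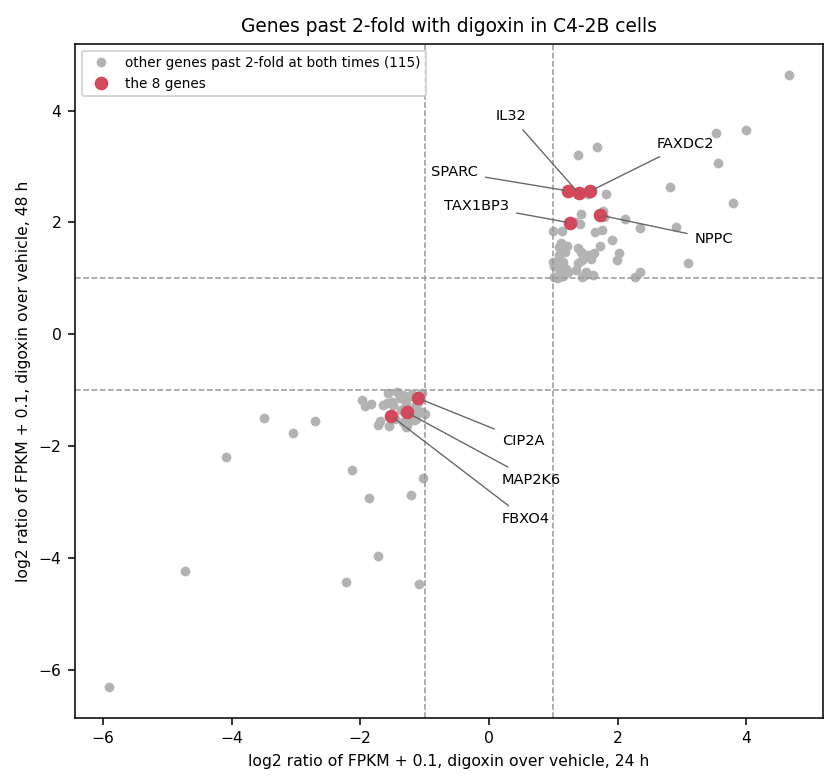
Log2 ratio of FPKM + 0.1, digoxin over its vehicle in C4-2B cells, at 24 h (x axis) and 48 h (y axis), for the 123 genes past 2-fold (dashed lines) at both times, with the 8 genes in red and the other 115 in grey. The 5 higher genes lie between 1.22 and 1.73 at 24 h and between 1.99 and 2.56 at 48 h, and the 3 lower genes between −1.52 and −1.09 and between −1.46 and −1.14.

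To see how far the untreated libraries lay apart, the vehicles of the 2 series were set against each other. Their tables differ too, with 35069 gene IDs in the UA series and 26237 in the digoxin series. The digoxin-series vehicle is also the denominator of the values that chose the 8 genes, so a low vehicle favours a gene's choice as higher and a high vehicle its choice as lower. At 24 h 5 of the 8 genes differed past 2-fold between the vehicles (10.2% of all genes did), and at 48 h 3 of 8 (16.8%). The ratios of digoxin-series over UA-series vehicle were −2.53 and −1.96 for NPPC, −1.63 and −2.65 for IL32, −1.12 and −0.67 for FAXDC2, and −0.59 and −0.80 for TAX1BP3, at 24 and 48 h. They were 1.29 and 1.23 for FBXO4, 0.71 and 0.38 for CIP2A, 0.55 and 0.79 for MAP2K6, and 1.28 and 0.58 for SPARC. For 7 of the 8 genes, all but FAXDC2, the 2 vehicles of the digoxin series did not overlap those of the UA series, as was so for 70.7% of 12515 genes.

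The vehicles of 24 and 48 h were also compared within each series. From 24 to 48 h 0 of 8 passed 2-fold in the digoxin-series vehicle (4.43% of all genes) and 1 of 7 in the UA-series vehicle (2.43% of all genes), FAXDC2 with −1.13.

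The digoxin libraries were then set against the vehicle of the UA series, a comparison that shares the digoxin libraries with the choice and differs from it in the vehicle. SPARC was the only 1 of the 8 genes past 2-fold at both times, with 2.50 at 24 h and 3.15 at 48 h. At 24 h 1 of 8 genes was past 2-fold (14.9% of all genes), and at 48 h 3 of 8 (16.0%), the others being FAXDC2 (0.45 and 1.88) and TAX1BP3 (0.68 and 1.19). The lower genes kept their sign without passing 2-fold: CIP2A had −0.38 and −0.76, MAP2K6 −0.73 and −0.61, and FBXO4 −0.23 and −0.22. IL32 turned to −0.23 and −0.13, and NPPC to −0.81 and 0.17. Why the vehicles of the 2 series differed was not tested.

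Of the 123 genes, 70 of the 71 higher and 50 of the 52 lower are listed in the UA series. Over the UA-series vehicle 24 of these higher genes and 15 of these lower genes were past 2-fold with an unchanged sign at 24 and 48 h, as were 1 of 5 and 0 of 3 of the genes described here. In either direction 14.9% of all genes were past 2-fold over this vehicle at 24 h and 16.0% at 48 h. The share at both times together is not given here, so the counts are a description.

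**Figure D3:**
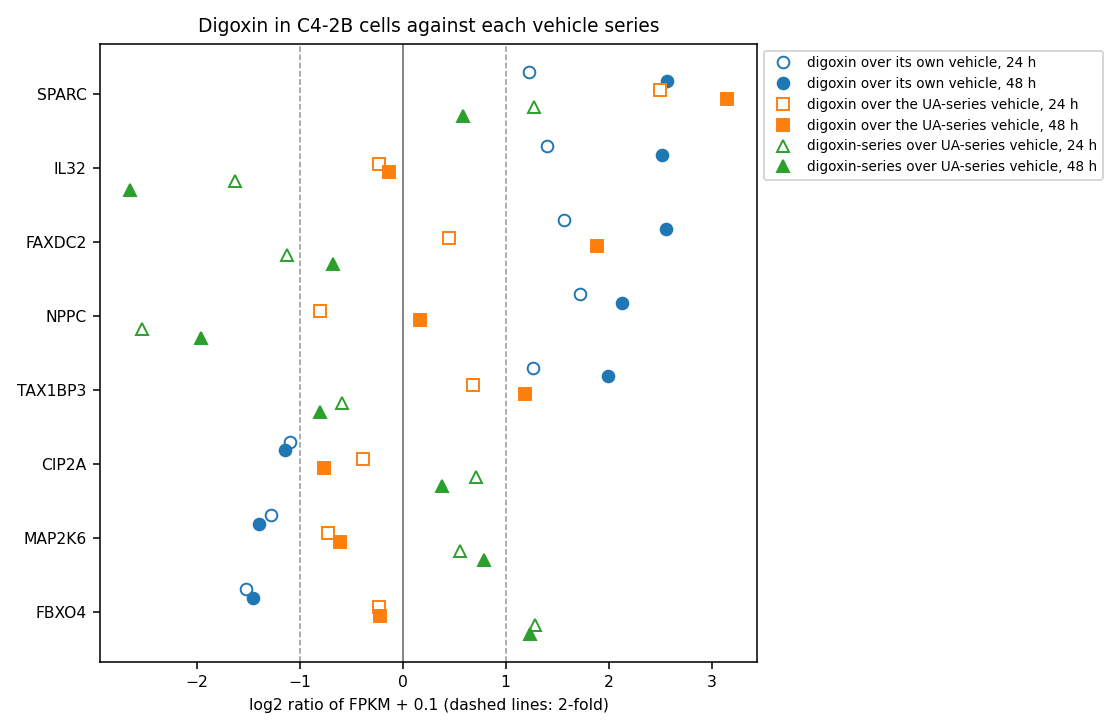
Log2 ratio of FPKM + 0.1 (x axis) for each of the 8 genes (y axis) in C4-2B cells at 24 h (open) and 48 h (filled): digoxin over its own vehicle (circles), digoxin over the UA-series vehicle (squares) and the digoxin-series vehicle over the UA-series vehicle (triangles), with dashed lines at 2-fold. SPARC is past 2-fold to the right against both vehicles at both times, while over the UA-series vehicle IL32 lies left of 0 at both times (−0.23 and −0.13) and NPPC at 24 h (−0.81).

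UA, a triterpenoid from plants, was given to the same line at 10 µM, a dose that differs from that of digoxin, so the values stand side by side and the compounds were not compared. At each time 0 of 7 genes compared were past 2-fold with UA over its own vehicle (2.32% of all genes at 24 h and 2.77% at 48 h). NPPC had ratios of −0.70 and −0.97 and IL32 of 0.57 and 0.70. The others were −0.02 and −0.72 for FAXDC2, −0.37 and −0.15 for TAX1BP3, −0.24 and −0.36 for CIP2A, −0.36 and −0.12 for MAP2K6, and 0.33 and −0.24 for FBXO4. The median of the 7 was −0.24 at both times, beside −0.01 and 0.01 over all genes. SPARC was under 1 FPKM in all 4 libraries and entered no count. Its level with vehicle and UA was 0.73 and 0.49 FPKM at 24 h, and 0.84 and 0.12 FPKM at 48 h.

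In HCC70 cells 6 of the 8 genes were detected, and both doses share the vehicle of their time. With 5 µM UA 0 of 5 genes compared were past 2-fold at 24 h (1.75% of all genes) and 1 of 6 at 48 h (2.35%), MAP2K6 with −1.13. With 10 µM UA it was 0 of 5 at 24 h (3.77% of all genes) and 3 of 6 at 48 h, when 20.1% of all genes were past 2-fold. CIP2A went from 18.86 FPKM with vehicle to 16.12 FPKM with 5 µM and 4.87 FPKM with 10 µM UA at 48 h, and the last is a ratio of −1.93. It was at 15.63, 15.86 and 12.88 FPKM in the same order at 24 h, so the low value belonged to 1 library.

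MAP2K6 was at 2.05, 0.88 and 0.04 FPKM at 48 h and at 0.60, 0.80 and 0.52 FPKM at 24 h. Its ratio of −3.94 with 10 µM at 48 h therefore starts from a vehicle that was itself 1.62 above the 24 h vehicle on the log2 scale, and it was the only 1 of 6 genes past 2-fold between these vehicles (3.46% of all genes). IL32 was at 3.95 FPKM with vehicle, 2.44 FPKM with 5 µM and 9.64 FPKM with 10 µM at 48 h, a ratio of 1.27 for the last, and at 5.38, 4.40 and 5.16 FPKM at 24 h. FAXDC2 (8.64 and 15.76 FPKM with vehicle and 10 µM at 48 h, 0.86), FBXO4 (6.11 and 4.27 FPKM, −0.51) and TAX1BP3 (78.74 and 86.17 FPKM, 0.13) were within 2-fold. At this dose and time the median over all genes was −0.20.

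**Figure D4:**
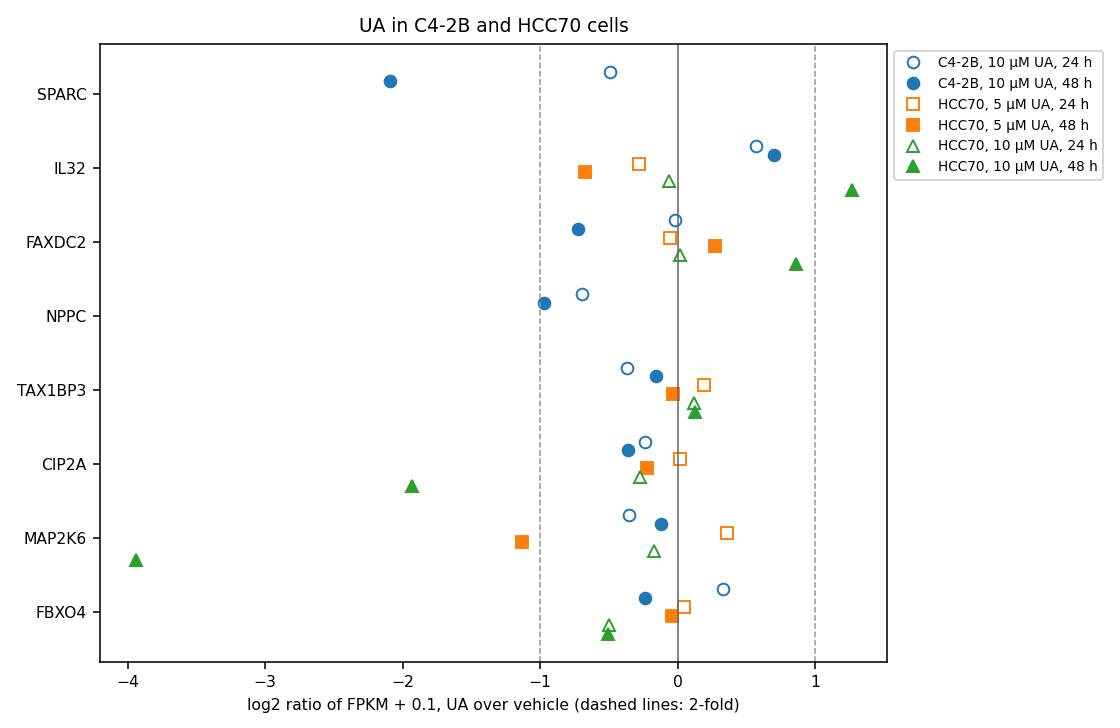
Log2 ratio of FPKM + 0.1, UA over vehicle (x axis), for each of the 8 genes (y axis) in C4-2B cells with 10 µM (circles) and in HCC70 cells with 5 µM (squares) and 10 µM (triangles), at 24 h (open) and 48 h (filled), with dashed lines at 2-fold. SPARC and NPPC have no HCC70 points because they were listed at 0, and the SPARC points in C4-2B cells come from levels under 1 FPKM. With 10 µM at 48 h in HCC70 cells CIP2A lies at −1.93 and MAP2K6 at −3.94.

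Genes that work with each of the 8 were read from lists of known partners, which leave out the 8 themselves. Their digoxin ratios come from the same libraries as the choice of the 8. Beside SPARC, 4 of 14 listed relatives and matricellular proteins were compared with digoxin, 1 of them past 2-fold higher at 24 h and 3 at 48 h. Over all genes 300 of 11896 and 329 of 12236 were past 2-fold higher. Of the 3 at 48 h, 1 stood at the threshold with 1.00 and had −0.46 at 24 h. CCN1, a matrix protein that integrins bind, was the 1 past 2-fold at both times, with 3.61 and 8.03 FPKM at 24 h and 2.95 and 8.47 FPKM at 48 h (1.13 and 1.49). With UA it had −0.31 and −0.58, and its UA-series vehicles were at 5.6 and 5.73 FPKM.

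Beside IL32, 4 of 11 cytokines and NF-kB feedback genes were compared with digoxin and 0 were past 2-fold at either time. NFKBIA, the inhibitor that holds NF-kB in the cytoplasm, had 0.42 and 0.59, and TNFAIP3, which shuts off NF-kB signalling, 0.62 and 0.87 at about 1 FPKM. The UA-series vehicles lay above the digoxin libraries for both genes. NFKBIA was at 105.79 and 122.95 FPKM in these vehicles and at 68.03 and 74.63 FPKM with digoxin. TNFAIP3 was at 2.17 and 1.97 FPKM in these vehicles and at 1.05 and 1.23 FPKM with digoxin. In HCC70 cells with 10 µM UA 6 of 10 were past 2-fold higher at 24 h, when IL32 had −0.06, and 6 of 10 at 48 h, when IL32 had 1.27. The list's medians were 1.13 and 2.27, and over all genes 240 of 11814 and 805 of 11858 were past 2-fold higher. Beside NPPC, 4 of 14 genes of the natriuretic peptide and cyclic GMP pathway were compared, 0 past 2-fold, with FURIN, the protease that processes the precursor, at 0.16 and −0.61 and GUCY1A1, a soluble guanylate cyclase subunit, at 0.60 and 0.48. Of 5 other fatty acid hydroxylases 3 were compared and 0 were past 2-fold. MSMO1, a sterol oxidase of cholesterol synthesis, had −0.44 and −0.52, and FA2H, which hydroxylates sphingolipid fatty acids, 0.00 and 0.81. The UA-series vehicles of MSMO1, at 5.24 and 5.33 FPKM, lay below both digoxin libraries, at 13.19 and 13.13 FPKM.

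Of 11 listed partners of TAX1BP3, 9 were compared at 24 h and 8 at 48 h, and 0 were past 2-fold. LEF1, a transcription factor that binds beta-catenin, had −0.82 and −0.42, and RTKN (rhotekin) −0.01 and 0.27. Of 24 PP2A subunits, inhibitors and activators, 23 were compared and 0 were past 2-fold, with medians of 0.05 and −0.04. ANP32A, like CIP2A an inhibitor of PP2A, had −0.34 and −0.81, and the regulatory subunit PPP2R2C −0.05 and −0.62.

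The p38 pathway list had 21 of 21 genes compared and 0 past 2-fold, with medians of 0.32 and 0.22 beside 0.12 and −0.02 over all genes. MAP2K3, the kinase that acts on p38 beside MAP2K6, went the other way from it, with 40.74 and 61.83 FPKM in vehicle and digoxin at 24 h and 35.10 and 65.12 FPKM at 48 h (0.60 and 0.89). Its UA-series vehicles, at 92.85 and 97.74 FPKM, lay above both digoxin libraries. DUSP10, a phosphatase of p38, had 0.32 and 0.97. Of 14 SCF subunits and FBXO4 substrates, all compared, 0 were past 2-fold at 24 h and 1 at 48 h, CRYAB, a chaperone described as a partner of FBXO4, with 0.43 and 1.17. TERF1 had −0.62 and −0.97.

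The direct target of digoxin, the sodium pump, had 6 of 8 listed subunits compared. At each time 1 was past 2-fold higher, beside 300 of 11896 and 329 of 12236 genes. The subunit past 2-fold at 24 h was not the same as at 48 h, when it was ATP1B3. ATP1B3, a beta subunit, was at 89.12 and 147.04 FPKM in vehicle and digoxin at 24 h and at 85.75 and 177.72 FPKM at 48 h (0.72 and 1.05), and its UA-series vehicles were close to its own, at 83.91 and 76.44 FPKM.

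Adjacent genes were read on both sides of each of the 8, in the libraries that chose them. ATOX1, next to SPARC, had 0.61 and 0.64. DZIP3, next to CIP2A, had −0.96 and −0.83 at under 1 FPKM in each of these 4 libraries, and ABCA5, next to MAP2K6, 0.96 and 0.98 where MAP2K6 was lower. Next to FBXO4, RIMOC1 had −0.20 at both times and GHR 0.20 and −0.08. Next to NPPC, COPS7B had 0.60 and 0.54 and DIS3L2 0.09 and −0.33. Next to TAX1BP3, EMC6 had 0.56 and 0.28 and SHPK −0.27 and 0.29, and next to FAXDC2, GEMIN5 had −1.03 and −0.37 and LARP1 −0.11 at both times. GEMIN5 at 24 h was the only value of these past 2-fold. The neighbours FAT2 (SPARC), MYH15 (CIP2A), KCNJ16 (MAP2K6) and MMP25 and ZSCAN10 (IL32) were under 1 FPKM in every C4-2B library.

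The correlations given here are Pearson's r of log2(FPKM + 0.1) over these 8 libraries, which share vehicles, series and times, and they are a description. The choice used 4 of the 8 libraries, so an r between any pair of the 8 genes is partly set by the choice. The 3 lower genes lay close together, with r of 0.90 for CIP2A and MAP2K6, 0.90 for MAP2K6 and FBXO4 and 0.82 for CIP2A and FBXO4. Among the higher genes FAXDC2 and TAX1BP3 had r of 0.89, IL32 and NPPC 0.75, and SPARC and IL32 −0.34. IL32 and FBXO4 had r of −0.86.

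Of 12816 genes, those most like each member by r were PPP1R8 and GSR for SPARC, ZNFX1 and SPATC1L for IL32, PTDSS2 and TRABD for NPPC, IBA57 and AEN for FAXDC2, PSMB10 and POLR3A for TAX1BP3, MTMR4 and PRPF4 for CIP2A, ZNF621 and KHDC1 for MAP2K6, and FTCDNL1 and NSDHL for FBXO4. The highest r was 0.97 for CIP2A, 0.98 for IL32, FAXDC2 and MAP2K6, and 0.99 for the other 4. From 28 genes (CIP2A) to 225 genes (SPARC) reached r of 0.9. The measure takes no account of size: PSMB10, a subunit of the immunoproteasome, ranged over 23.34 to 37.64 FPKM while TAX1BP3 ranged over 25.67 to 102.36 FPKM.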

How the data were processed

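The deposited tables hold 1 FPKM value per gene and library, to 2 decimals. Per the submitters' processing notes and the study's methods, the authors used BWA and Bowtie for alignment to hg38 and Cufflinks for the FPKM estimates, in versions not given in the sources used here. The methods describe this workflow for HCC70 cells, and the digoxin-series tables name no unit. Read totals were not used here. Low values fell near whole fragments too rarely to recover counts (28.6 to 37.2% within 0.1 of a whole number, 20% if spread evenly), so the depth is unknown and no counting interval is given.

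Each of the 8 genes had 1 entry. Genes not listed in the digoxin series (8957 IDs) were left out of comparisons with it. Ratios used a pseudocount of 0.1 FPKM and genes above 1 FPKM in either library, and 2-fold was the threshold. With 1 library per condition the comparisons carry no test. A limma fit with times as replicates was an alternative (closing section). Gene positions are GENCODE v44. The members and gene lists were chosen with earlier results of these data known. Besides the 8 genes, those named were the partners past 2-fold at both times with digoxin, otherwise the 2 with the largest ratio at 48 h, the 2 genes most like each member, and the genes nearest the threshold. Some list members that this rule names are not reported here. Neighbouring and overlapping genes and cell type markers were added for context. Counting and limma were tested on simulated data. No 2 libraries shared more than 0.393% of values above 1 FPKM. Python 3.11.15, numpy 2.4.6, pandas 2.3.3, matplotlib 3.10.9, R 4.3.3 and limma 3.58.1 were used.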

Additional observations from a re-analysis of the deposited data

Results flagged for a closer look

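With 10 µM UA, 2 of the 6 genes compared in both lines had ratios of 1 sign at both times in C4-2B cells and of the other sign at both times in HCC70 cells, as did 14.2% of 10845 genes. FAXDC2 had −0.02 and −0.72 in C4-2B cells and 0.02 and 0.86 in HCC70 cells at 24 and 48 h, of which the 24 h values were close to 0, and the mean ratio was higher in HCC70 cells by 0.81. TAX1BP3 had −0.37 and −0.15 against 0.12 and 0.13, a difference of 0.39. By limma with the times as replicates, the differences had standard errors of 0.44 and 0.28 and adjusted p-values of 0.41 and 0.51, so neither passed the test.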

How the results depend on the processing

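Over the vehicle of the other series the members past 2-fold with digoxin were 1 at 24 h, 3 at 48 h and 1 at both times in place of 8. With UA in C4-2B cells they were 4, 3 and 2 in place of 0. Of all genes 14.9% (24 h) and 16.0% (48 h) were past 2-fold with digoxin over that vehicle, and 10.2% and 16.8% between the vehicles themselves. The share with UA over the other vehicle is not given here, nor are shares for the settings below, so these counts describe the members only. IL32 with digoxin turned to −0.23 and −0.13 and NPPC at 24 h to −0.81, and with UA at 24 h FAXDC2 turned to 1.11 and NPPC to 1.84. With a filter above 5 FPKM the digoxin counts were 5 at 24 h and 5 at both times, and the vehicles of the series differed in 2 members at 24 h (5 as reported). A pseudocount of 1 took SPARC with digoxin at 24 h to 0.94, under 2-fold, which left 7 of 8 members at 24 h and at both times, and gave 3 between the vehicles (SPARC 0.75 and FAXDC2 −0.80 fell short), and both these settings gave 0 in place of 1 for time in the UA-series and HCC70 vehicles and for 5 µM UA in HCC70 cells at 48 h. Without a filter UA in C4-2B cells at 48 h had 1 (SPARC). A 1.5-fold threshold gave 1 and 3 with UA in C4-2B cells at 24 and 48 h and 1 at both, 7 between the vehicles at 48 h, 3 for time in the digoxin-series vehicle, and 2 with 5 µM UA at 48 h. Median centring, a pseudocount of 0.01, the planned scaling to symbols not starting with MT- (0 symbols do, so it equalised the totals) and scaling to nuclear genes by annotation (added after seeing the data) moved none of these counts by over 1.5 times and reversed no member's ratio past 2-fold. Equal totals took the median over all genes between the vehicles of the series from 0.03 to 0.19 (24 h) and 0.19 to 0.46 (48 h), and for time in the UA-series vehicle from −0.03 to −0.14. Nuclear scaling took it from −0.20 to −0.55 with 10 µM UA in HCC70 cells at 48 h, from 0.12 to −0.04 with digoxin at 24 h, and for time from 0.13 to −0.02 in the digoxin-series and from −0.11 to 0.11 in the HCC70 vehicle.

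By limma (Benjamini-Hochberg adjusted p under 0.05) 0 members passed with UA in either line, the same count as reported for both times together. The fit counts a response that differs between 24 and 48 h as error. CIP2A with 10 µM UA in HCC70 cells, for example, had −0.28 at 24 h and −1.93 at 48 h. A member that did not pass is therefore not shown to be unchanged. In C4-2B cells 0 of 13558 genes passed and 634 had an unadjusted p under 0.05, 2 of them members, with NPPC at −0.83 ± 0.15 (SE) and an adjusted p of 0.34. With 10 µM UA in HCC70 cells 120 genes passed, and MAP2K6 (−2.06), CIP2A (−1.10) and FBXO4 (−0.50) had adjusted p-values of 0.13, 0.11 and 0.11. This fit has a time term for each series, which pairs treated and vehicle libraries of 1 time. It estimates 1 variance per gene over all 14 libraries, both lines and the digoxin series included. NPPC therefore had the same SE of 0.15 in HCC70 cells, where it was listed at 0, and its SE is not a spread within C4-2B cells. No paired analysis by replicate number was possible because the labels give no replicate numbers.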
